A study of Homo sapiens with 12 samples.

Results

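The 37 HOX genes described here are homeobox genes of the HOXA, HOXB, HOXC and HOXD clusters: 10 in HOXA on chromosome 7, 9 in HOXB on chromosome 17, 9 in HOXC on chromosome 12 and 9 in HOXD on chromosome 2. They were taken by name, and all 37 matched the RefSeq annotation of GRCh38.p14, out of 20037 protein-coding genes on 24 chromosomes. HOXB13, which lies apart from the rest of its cluster, was not among them. Chromatin accessibility was measured by ATAC-seq, in which a transposase cuts and tags the DNA it can reach, in the established prostate cancer line 22Rv1. The 12 samples form 4 groups of 3: OSU-ERb-12 plus enzalutamide for 6 h, enzalutamide at 1 µM for 6 h, OSU-ERb-12 at 100 nM for 6 h, and vehicle. The labels give the genotype of every sample as WT, give no dose for the samples that received both agents, and describe the samples of a group as biological triplicates. Enzalutamide is an androgen receptor antagonist used against prostate cancer. OSU-ERb-12 is known as an agonist selective for oestrogen receptor beta.

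The values are positions in 3 deposited lists of nucleosome-free regions, each list for a single treatment. No list of the vehicle samples is analysed here. The enzalutamide list had 25317 regions, the OSU-ERb-12 list 17931 and that for the 2 agents together, named the combination list below, 6248. A region carries a position on hg38 and no height, fold or p-value, since the deposited score is 0 in every row. The lists are taken here as differences from the single vehicle group. No source used here states that comparison, its threshold or the sign of a difference. A listed region is therefore a place reported for a treatment, with no call of gain or loss. Sequencing depth is unknown and no value per sample was given, so no result below has a replicate error, no test between groups was possible, and the intervals given are for counting error alone. Genes with no region in a list can have changed too, below a threshold that is unknown.

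HOX genes encode transcription factors that bind DNA through a homeodomain and set the identity of segments along the body axis. Within a cluster they lie in order, from the low-numbered genes used towards the head to the high-numbered genes used towards the tail, and genes with the same number in different clusters are called paralogues. Their clusters are classical targets of Polycomb repressors and of the opposing MLL complexes, and the HOX proteins bind together with TALE partners of the PBX and MEIS families. In the prostate and the rest of the urogenital tract the genes at the high-numbered end are those best known for a part in development.

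Start sites were compared with the regions through RefSeq promoter windows, 250 bases before to 50 after an annotated start, of which 20 of the 37 members had at least 1. An enzalutamide region overlapped such a window at 2 of the 20, HOXD11 and HOXA3, where 12.2% of the 15843 protein-coding genes with an entry had such an overlap. An OSU-ERb-12 region overlapped that of HOXA4, against 1.74% of genes, and a combination region those of HOXC4 and HOXC5, against 2.41%. HOXC4 and HOXC5 have the same window, so these are a single place, and only its first 13 bases were inside the region. These are the member promoter windows that a listed region overlaps, and they are shown for that reason. In the HOXC4 window the region ends before the start site. They are printed 5′ to 3′ along the gene, from RefSeq GRCh38.p14, and capitals mark the bases inside the listed region. The HOXD11 window is chr2:176107030-176107329 on the plus strand, with 271 bases inside an enzalutamide region. The HOXA3 window, 1 of 7 annotated for this gene, is chr7:27119546-27119845 on the minus strand, with 155 bases inside an enzalutamide region. The HOXA4 window is chr7:27130708-27131007 on the minus strand, with 143 bases inside an OSU-ERb-12 region. The window of HOXC4 and HOXC5 is chr12:54016638-54016937 on the plus strand.
HOXD11: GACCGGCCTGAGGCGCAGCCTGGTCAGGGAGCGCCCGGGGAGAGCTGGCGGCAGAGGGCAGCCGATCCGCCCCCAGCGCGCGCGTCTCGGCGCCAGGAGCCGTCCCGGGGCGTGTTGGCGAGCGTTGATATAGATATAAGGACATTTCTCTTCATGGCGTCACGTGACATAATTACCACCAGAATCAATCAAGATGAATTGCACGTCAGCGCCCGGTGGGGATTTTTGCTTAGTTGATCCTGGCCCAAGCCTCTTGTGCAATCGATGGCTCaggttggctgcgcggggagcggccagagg
HOXA3: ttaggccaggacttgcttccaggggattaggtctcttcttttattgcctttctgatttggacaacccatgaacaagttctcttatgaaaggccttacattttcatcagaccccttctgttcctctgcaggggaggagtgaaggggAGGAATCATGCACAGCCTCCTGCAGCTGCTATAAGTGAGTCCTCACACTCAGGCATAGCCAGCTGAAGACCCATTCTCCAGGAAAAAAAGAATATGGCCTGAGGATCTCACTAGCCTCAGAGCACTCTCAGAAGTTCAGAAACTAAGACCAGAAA
HOXA4: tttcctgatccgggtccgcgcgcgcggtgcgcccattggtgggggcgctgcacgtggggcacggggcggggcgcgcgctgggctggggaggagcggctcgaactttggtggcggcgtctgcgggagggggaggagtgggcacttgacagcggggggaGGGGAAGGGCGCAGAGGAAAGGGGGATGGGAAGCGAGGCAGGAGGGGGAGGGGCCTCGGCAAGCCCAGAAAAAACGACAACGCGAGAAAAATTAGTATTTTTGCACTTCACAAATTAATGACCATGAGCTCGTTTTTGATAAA
HOXC4: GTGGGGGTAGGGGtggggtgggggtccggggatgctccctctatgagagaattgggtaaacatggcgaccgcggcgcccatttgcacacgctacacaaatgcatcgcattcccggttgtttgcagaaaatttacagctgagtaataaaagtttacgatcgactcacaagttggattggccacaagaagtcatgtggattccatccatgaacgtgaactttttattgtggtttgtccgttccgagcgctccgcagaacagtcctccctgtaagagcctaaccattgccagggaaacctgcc

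The windows differed in base composition. HOXD11 and HOXA4 had 27 CG pairs each and 62.3% and 63.3% of G and C, HOXC4 had 15 and 51.7%, and the HOXA3 window had 0 and 47.3%. The median of all 35116 windows was 14 CG pairs and 58.7%. The capitals in HOXD11 ran from the start of the window to 20 bases after the start site, so nearly all of that promoter was covered. In HOXA3 and HOXA4 the region covered the last 155 and 143 bases of the window, start site included.

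Motifs of the receptors that the agents act on were searched as letters on both strands, with the full sites containing the single elements. None of the 4 windows held the full androgen receptor site (AGAACA and TGTTCT with 3 bases between them), which 0.00285% of all windows held, or the full oestrogen receptor site (GGTCA and TGACC with 3 bases between them), held by 0.0570%. A single AGAACA (14.8% of all windows hold it) was present once in the HOXC4 window, outside the listed region. A single GGTCA (37.4%) was present once each in the HOXD11 and HOXA4 windows, inside the listed regions. The HOXD11 window also held 1 copy of TGAT and AT with 2 bases between them, the site of HOX proteins with PBX, present in 7.40% of windows. These are matches of letters in these windows only.

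A gene was counted as holding a region if a region overlapped its locus, meaning the gene and 10 kb beyond each end, by 1 bp or more. Enzalutamide regions lay at 26 of the 37 HOX loci (70.3%), where 58.3% of all protein-coding genes held one. OSU-ERb-12 regions lay at 16 (43.2%), against 39.1% of all protein-coding genes, and combination regions at 14 (37.8%), against 21.7%. HOX genes are short, and their loci spanned 21.7 to 65.6 kb. Among the 12260 protein-coding genes with loci in that range, the enzalutamide share was 51.8%, the OSU-ERb-12 share 31.9% and the combination share 18.0%. The HOX shares were above these background shares for each list, least so for OSU-ERb-12.

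The median HOX locus held 1 enzalutamide region, 0 OSU-ERb-12 regions and 0 combination regions, the same medians as over all protein-coding genes. The mean numbers per locus were 1.46 enzalutamide, 0.568 OSU-ERb-12 and 0.486 combination regions in HOX loci, against 0.852, 0.425 and 0.209 in the genes of that range of lengths. Over all protein-coding genes, many of them longer, the means were 1.15, 0.691 and 0.278, so the HOX mean for OSU-ERb-12 was below that of all genes. HOX loci overlap their neighbours, so a single region counts for up to 4 genes, and of the 44 regions in the clusters 17 lay in the locus of 1 HOX gene alone. The members are therefore not independent of each other. With the gene body alone, enzalutamide regions lay in 12 of 37 HOX genes (32.4%), against 30.4% of the genes in that range of locus lengths and 41.0% of all protein-coding genes. OSU-ERb-12 regions lay in 6 (16.2%), against 16.4% and 26.8%, and combination regions in 4 (10.8%), against 8.65% and 13.9%. By gene body the HOX shares were thus close to those of the genes in that range and below those of all genes. Lengths were not matched within the range, and most HOX loci lie near its lower end.

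**Figure D1:**
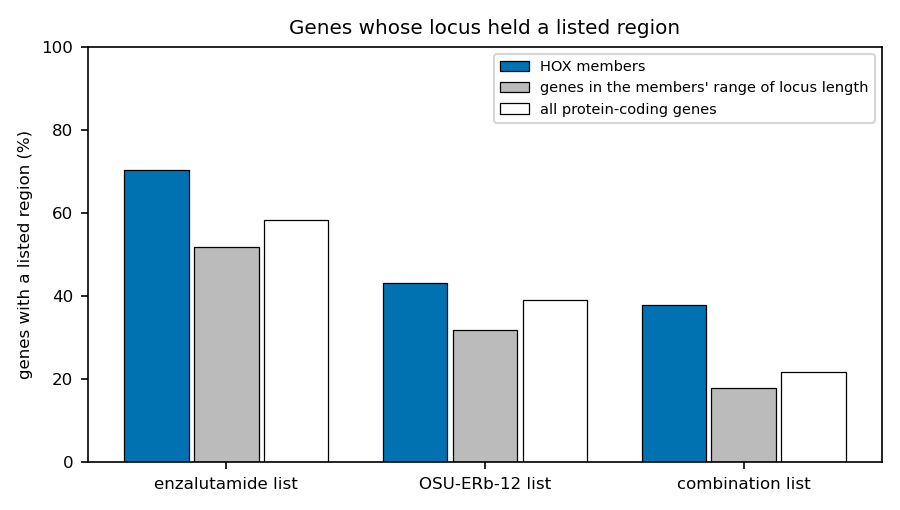
Share of genes (y axis, percent) whose locus held a listed region, for each of the 3 lists (x axis): HOX members, protein-coding genes in the same range of locus length, and all protein-coding genes. The HOX bar is the highest in each list, at 70.3%, 43.2% and 37.8%.

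Each cluster was also taken as a whole, from its first to its last member with 10 kb on either side. The 4 windows were 117.8 to 137.2 kb long and together made up 0.0161% of the extent of the chromosomes. They held 24 enzalutamide regions (0.0948% of that list; exact 95% interval 0.0607 to 0.141), 13 OSU-ERb-12 regions (0.0725%; 0.0386 to 0.124) and 7 combination regions (0.112%; 0.0451 to 0.231). These intervals overlap, and no difference between the lists was tested. In regions per 100 kb, the windows had 4.82 for enzalutamide (exact Poisson 95% interval 3.09 to 7.17), 2.61 for OSU-ERb-12 (1.39 to 4.46) and 1.41 for the combination (0.565 to 2.90). The whole lists had 0.820, 0.581 and 0.202.

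HOXC held the most, with 11 enzalutamide, 5 OSU-ERb-12 and 4 combination regions. HOXB held 7, 3 and 2 in the same order of lists, and HOXA 4, 5 and 1. HOXD held 2 enzalutamide regions and none of the other lists. With these limits HOXC had the most enzalutamide and combination regions and tied with HOXA for OSU-ERb-12. The order of these counts depends on the limits. With HOXB13 included in its window, HOXB had 11 enzalutamide regions, as many as HOXC. That window is longer than the others, since HOXB13 lies 98.4 kb beyond HOXB9, and its density was not computed. With regions wider than 200 bp alone, HOXA, HOXB and HOXC each had 1 combination region.

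In the enzalutamide list the density was 8.02 regions per 100 kb in HOXC (4.0 to 14.3), 5.94 in HOXB (2.39 to 12.2), 3.34 in HOXA (0.910 to 8.55) and 1.62 in HOXD (0.196 to 5.85). The intervals of neighbouring clusters in that order overlap, and so do those of HOXC and HOXD. In the OSU-ERb-12 list HOXA had 4.18 (1.36 to 9.74), HOXC 3.64 (1.18 to 8.50) and HOXB 2.55 (0.525 to 7.44), with overlapping intervals. In the combination list HOXC had 2.92 (0.794 to 7.46), HOXB 1.70 (0.206 to 6.13) and HOXA 0.835 (0.0211 to 4.65). These intervals overlap as well, and no difference between clusters was tested.

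In the enzalutamide list all 4 windows were denser than their chromosomes. HOXC had 6.76 times the density of chromosome 12, HOXB 5.19 times that of chromosome 17, HOXA 3.30 times that of chromosome 7 and HOXD 2.32 times that of chromosome 2. For OSU-ERb-12 the ratios were 4.41 in HOXA, 3.90 in HOXB and 3.44 in HOXC, and for the combination 2.79, 5.58 and 8.06, while HOXD held no region of these lists. Much of each chromosome is poor in genes, so the 500 kb on either side of each window were added as a nearer comparison after the data were seen. There the enzalutamide density was 2.90 per 100 kb around HOXC, 2.20 around HOXB, 1.30 around HOXA and 0.40 around HOXD. All 4 clusters were above their surroundings by 2.57 to 4.05 times, and their order by density was that of the surroundings. The surroundings rest on few regions too, 29, 22, 13 and 4, and each has a counting interval that overlaps that of its window (1.94 to 4.16 around HOXC, 1.38 to 3.33 around HOXB).

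For OSU-ERb-12 the densities were 4.18, 2.55 and 3.64 per 100 kb in HOXA, HOXB and HOXC, against 1.30, 1.10 and 2.00 around them. For the combination they were 0.835, 1.70 and 2.92, against 0.40, 0.100 and 1.00. The surroundings of HOXA, HOXB and HOXC held 13, 11 and 20 OSU-ERb-12 regions. They held 4, 1 and 10 combination regions, so the value around HOXB rests on 1 region. Over the 3 lists, the counting intervals of window and surroundings overlapped in 12 of 12 pairs. With so few regions the intervals are wide, and their overlap is not a test and does not show equal densities. HOXD had 0 regions of either list, for which counting allows up to 2.99 per 100 kb, and the 500 kb on each side of it held 1 OSU-ERb-12 and 0 combination regions.

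**Figure D2:**
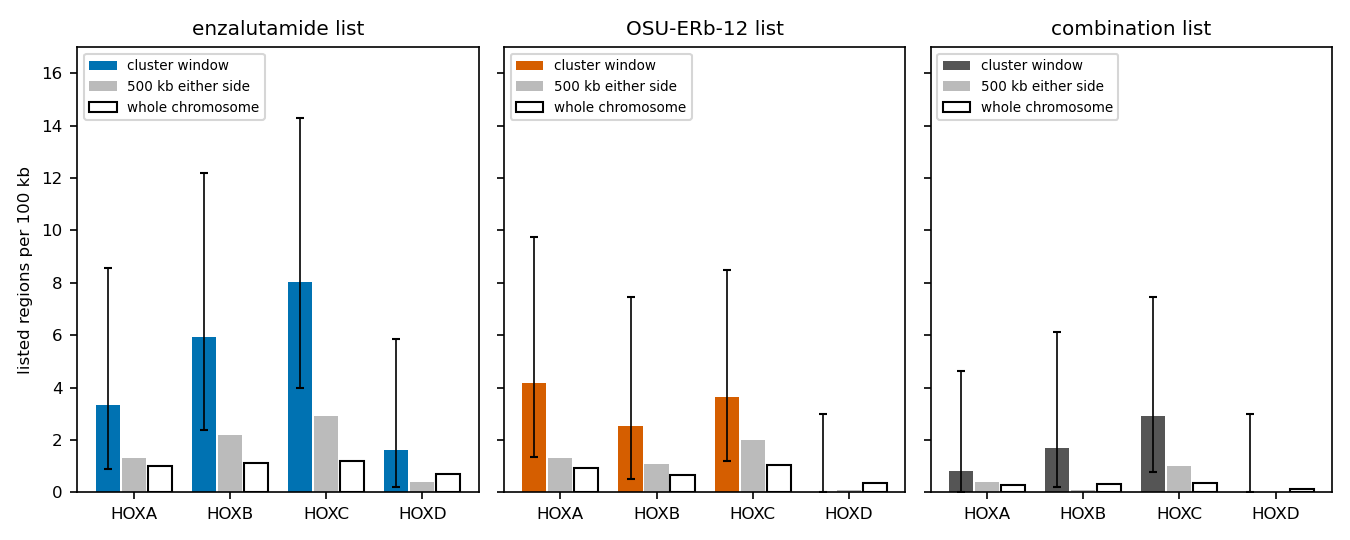
Listed regions per 100 kb (y axis) in each HOX cluster window, in the 500 kb on either side of it and on the whole chromosome, 1 panel per list; the bars on the cluster values are exact Poisson 95% intervals for counting only. HOXC has the highest enzalutamide density, 8.02, and HOXD has no OSU-ERb-12 and no combination region.

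In HOXA, the low-numbered genes held regions of the single agents and no combination region. HOXA2, needed for the second branchial arch, held 1 enzalutamide region. It spanned 27096301 to 27097250 on chromosome 7, inside HOTAIRM1, a long non-coding RNA gene beside HOXA2. At 950 bp it was the widest of all 44, a width that 0.197% of the enzalutamide list reached. HOXA3, a gene of pharyngeal arch development, held 3 enzalutamide and 3 OSU-ERb-12 regions in a locus of 65.6 kb. HOXA4 shared 1 and 2 of these, and 2 OSU-ERb-12 regions at 27129551 to 27129750 and 27130651 to 27130850 lay inside its body or across its start.

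The middle of HOXA was sparse. HOXA6, HOXA7 and HOXA9, the last of them a gene known for its part in leukaemia, each held the same enzalutamide region at 27154401 to 27154600, inside HOXA7. HOXA5 held no region of any list. From 27154601 to 27189350, 34.8 kb that include the bodies of HOXA9, HOXA10 and HOXA11, no list had a region. HOXA10 and HOXA11, genes of uterine development, held the combination region at 27189351 to 27189600, and HOXA11 also an OSU-ERb-12 region.

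HOXA13, which patterns the limb ends and the urogenital tract, held 1 enzalutamide, 2 OSU-ERb-12 and 1 combination region. Its enzalutamide region at 27199751 to 27200000 and its OSU-ERb-12 region at 27199801 to 27200000 ended at the same base, inside the gene and 91 bp from the start of HOXA13. The combination region of HOXA13 was the distant one shared with HOXA10 and HOXA11.

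In HOXB, enzalutamide regions gathered at the high-numbered end. HOXB7 and HOXB8 held 5 each, HOXB9 4 and HOXB6 4, while HOXB1, HOXB4 and HOXB5 held none and HOXB2 and HOXB3 had the same 1. Of the 7 enzalutamide regions in the cluster, 6 lay between 48609651 and 48626800 on chromosome 17, a stretch of 17.1 kb. A pair of gene bodies took 4 of them, HOXB7 with the regions at 48609651 to 48609850 and 48610151 to 48610500, and HOXB8 with those at 48613451 to 48613650 and 48614301 to 48614600. A wider region of 550 bp, at 48618501 to 48619050, lay between HOXB8 and HOXB9. The first 5 of the 6 fell within 9.40 kb. In the whole enzalutamide list 96 regions (0.379%) belonged to a run of at least 5 within 10 kb, and no other run lay in a HOX cluster. This run was singled out after its values were seen.

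The OSU-ERb-12 and combination regions in HOXB were spread more widely. HOXB1, a hindbrain gene, held 1 OSU-ERb-12 region at 48527601 to 48527800, 726 bp outside the gene. HOXB5, HOXB6, HOXB7 and HOXB8 held the same OSU-ERb-12 region at 48602401 to 48602600, inside HOXB6. HOXB3 held 2 combination regions inside its body, at 48549951 to 48550200 and 48588201 to 48588400. HOXB2 held the first of these, and HOXB4, HOXB5 and HOXB6 the other. HOXB9 was the only gene of the cluster where an enzalutamide and an OSU-ERb-12 region overlapped. They lay at 48626551 to 48626800 and 48626651 to 48626850, the nearer 193 bp outside the gene.

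In HOXC all 9 members held an enzalutamide region in the locus, from 11 regions in overlapping loci, and 6 held one in the gene body. Of all protein-coding genes, 58.3% held one in the locus and 41.0% in the gene body. HOXC4 held 5 enzalutamide, 1 OSU-ERb-12 and 2 combination regions, the highest total of any member at 8. HOXC5 and HOXC6, the second of which is used as a urinary marker of prostate cancer, held 3, 0 and 2 in that order of lists. RefSeq starts HOXC4, HOXC5 and HOXC6 at the same base, so these 3 genes share most of their regions. All 5 enzalutamide regions of HOXC4 were inside the gene, among them a region of 750 bp at 54052101 to 54052850 on chromosome 12, a width reached by 0.940% of the list. A combination region at 54039701 to 54039900 and an enzalutamide region at 54040101 to 54040450 were 200 bp apart.

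HOXC8 held 1 region of each list, HOXC9 1 enzalutamide and 1 OSU-ERb-12 region, and HOXC10 3 enzalutamide and 1 OSU-ERb-12 region, while HOXC12 held 1 enzalutamide region alone. HOXC11 held 2 enzalutamide, 1 OSU-ERb-12 and 1 combination region. The combination region at 53972951 to 53973150 lay across the lower end of HOXC11. The enzalutamide region at 53974801 to 53975100 and the OSU-ERb-12 region at 53974951 to 53975200 overlapped inside HOXC11, where the annotation also places the upper end of HOTAIR, a long non-coding RNA gene known for its link to Polycomb.

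HOXC13, a regulator of keratin genes in hair and nails, held 2 enzalutamide, 2 OSU-ERb-12 and 1 combination region. It was the only member at which regions of all 3 lists overlapped. The enzalutamide region spanned 53939501 to 53940100, the combination region 53939501 to 53939800 and the OSU-ERb-12 region 53939551 to 53939750, inside the gene and 670 bp or more from its lower end, with the upper end of HOXC13-AS, its antisense gene, also beneath them. The enzalutamide region, 600 bp wide, was within the widest 2.28% of its list.

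HOXD was the cluster with the fewest regions. HOXD1, HOXD4, HOXD8, HOXD9 and HOXD13, the last a gene of digit formation, held none of any list. HOXD10, HOXD11 and HOXD12 held the same enzalutamide region at 176106901 to 176107300 on chromosome 2, across the start of HOXD11. HOXD3 held the other enzalutamide region, at 176174451 to 176174700, which lay inside the long non-coding RNA gene HAGLR and 1353 bp outside HOXD3. Between them were 67.2 kb without a region, the longest such stretch in the 4 clusters. It includes the bodies of HOXD3, HOXD4, HOXD8, HOXD9 and HOXD10.

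**Figure D3:**
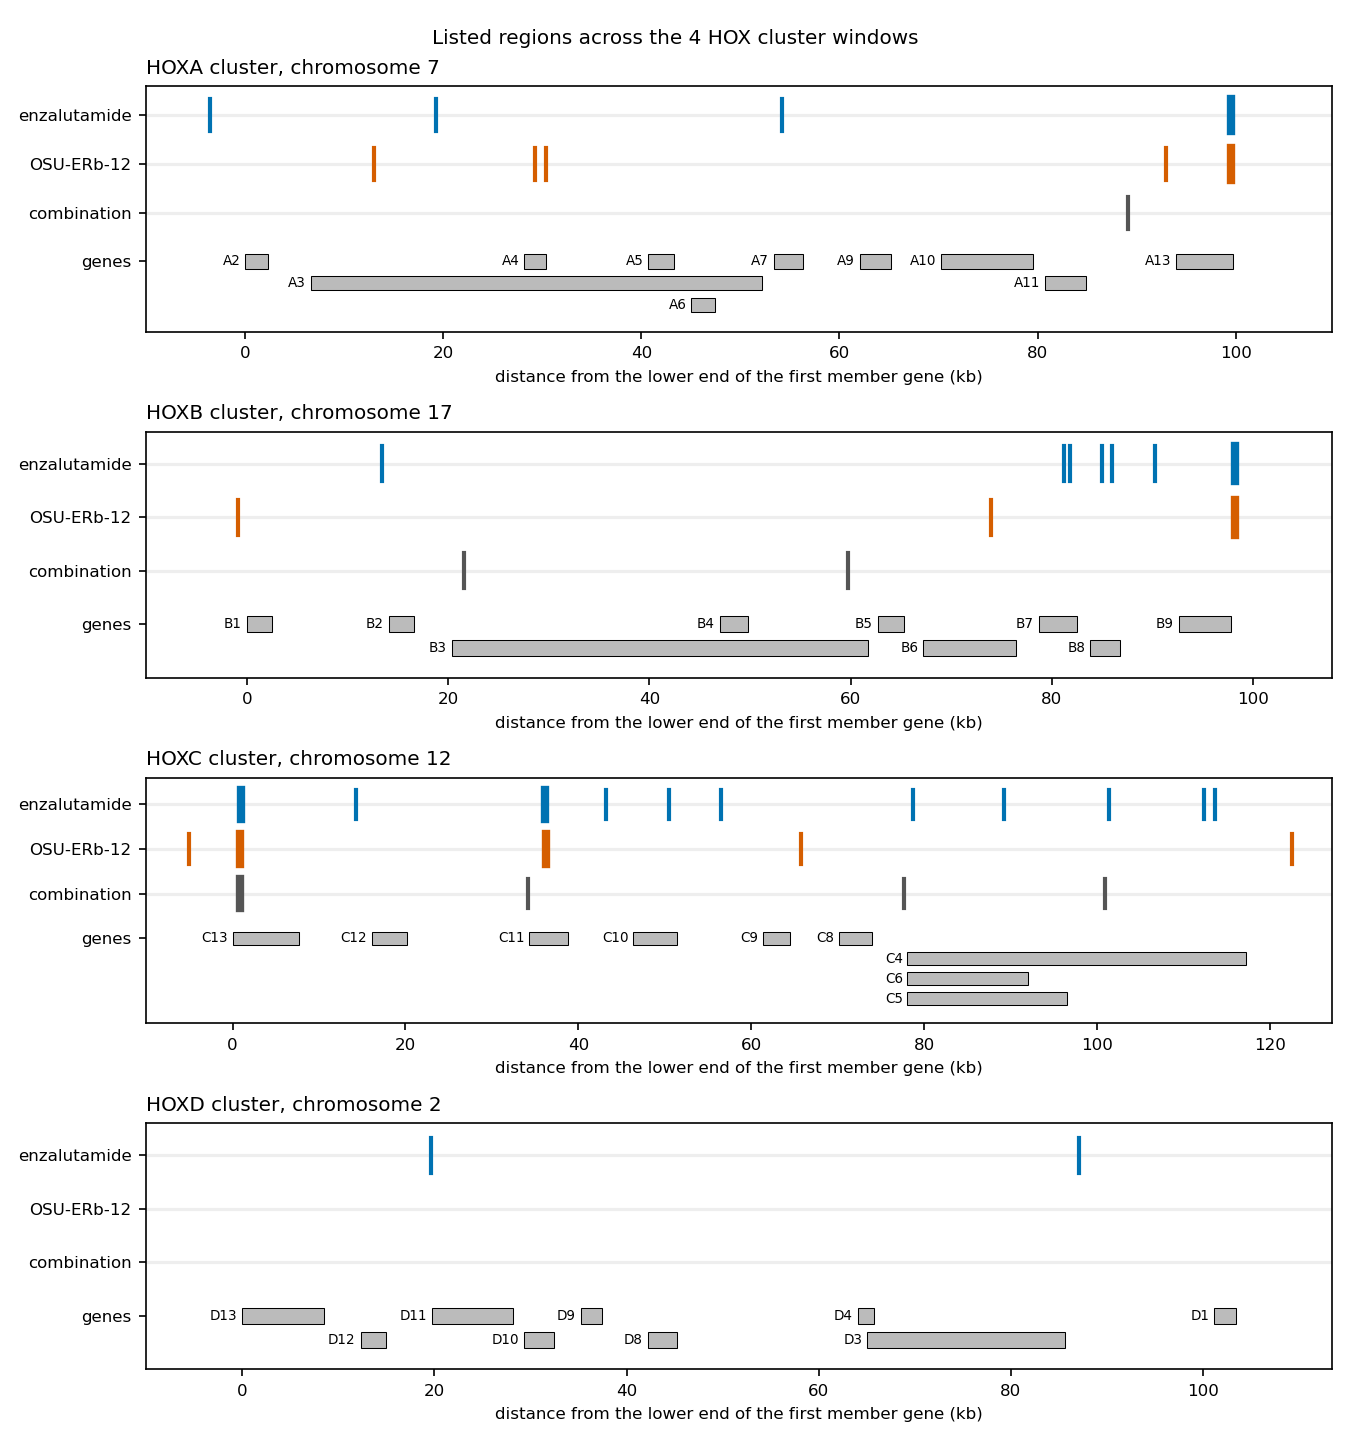
Position of every listed region in the 4 cluster windows, in kb from the lower end of the first member gene (x axis), with 1 row per list and the member genes as grey bars named without the letters HOX; thick marks are regions that overlap a region of another list. Thick marks stand at HOXA13, HOXB9, HOXC11 and HOXC13, and the HOXD panel has 2 marks, both enzalutamide.

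**Figure D4:**
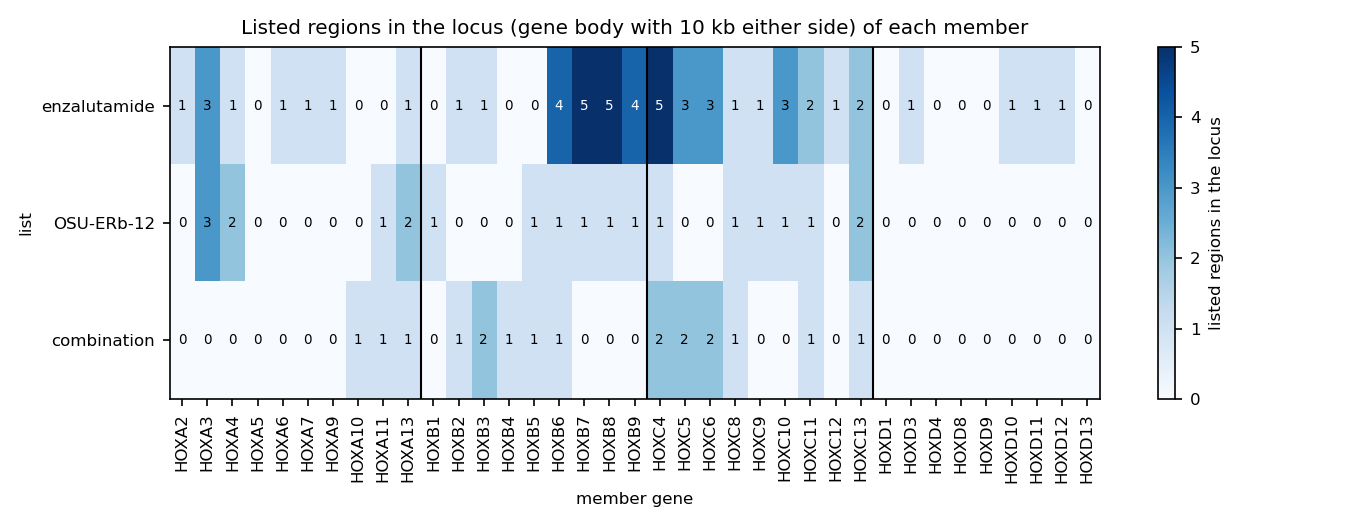
Number of listed regions in the locus of each of the 37 members (x axis, vertical lines between clusters) in each list (y axis); colour and digits give the number. HOXB7, HOXB8 and HOXC4 have 5 enzalutamide regions each, and 6 members have 0 in every list.

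Regions of different lists overlapped at 4 places in the clusters, at HOXA13, HOXB9, HOXC11 and HOXC13. The overlap was 200 bp at HOXA13, 150 bp at HOXB9 and 150 bp at HOXC11, each between enzalutamide and OSU-ERb-12. At HOXC13 the enzalutamide and combination regions shared 300 bp, and each shared 200 bp with the OSU-ERb-12 region. All 4 genes belong to paralogue groups 9 to 13, which was noticed after the data were seen. These groups make up 15 of the 37 members. Their loci held 13 of the 24 enzalutamide and 7 of the 13 OSU-ERb-12 regions in the clusters. The lists are taken to share the vehicle group, so places in common are given as positions side by side and not as a result on the agents. By locus, 6 members held regions of each list (HOXA13, HOXB6, HOXC4, HOXC8, HOXC11 and HOXC13), where 11.0% of all protein-coding genes did. Another 6 held none (HOXA5, HOXD1, HOXD4, HOXD8, HOXD9 and HOXD13), where 29.3% of all genes held none. Of the 6 without a region, 5 were in HOXD.

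Enzalutamide regions were present at 5 of 7 members of groups 1 to 3 and 10 of 15 of groups 4 to 8. In groups 9 to 13 they were present at 11 of 15. These shares were 71.4%, 66.7% and 73.3%, against 58.3% of all protein-coding genes. The OSU-ERb-12 numbers were 2, 7 and 7 (28.6%, 46.7% and 46.7%), against 39.1%. Those of the combination list were 2, 7 and 5 (28.6%, 46.7% and 33.3%), against 21.7%. Neighbouring loci share regions, so the members of a block are not independent. Distinct regions in the 7, 15 and 15 loci of these blocks numbered 5, 12 and 13 for enzalutamide, 4, 5 and 7 for OSU-ERb-12 and 2, 3 and 3 for the combination, with regions at a border counted in both blocks. Paralogues often differed, though HOXC12 and HOXD12 had the same numbers, 1 enzalutamide region and none of the other lists. In group 13, HOXC13 held regions of each list, as HOXA13 did, and HOXD13 none.

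Regions often lay near an end of a protein-coding gene. Within 1 kb of such an end were 11 of 24 enzalutamide regions (45.8%; exact 95% interval 25.6 to 67.2), 6 of 13 OSU-ERb-12 regions (46.2%; 19.2 to 74.9) and 3 of 7 combination regions (42.9%; 9.90 to 81.6). In the whole lists the shares were 22.4%, 8.09% and 15.6%. HOX genes are packed closely, and 29.0% of the bases in the 4 windows are within 1 kb of a gene end, against 2.36% over all chromosomes. The intervals of all 3 shares include 29.0%, and the part of gene packing in these shares was not tested. Member gene bodies, which cover 52.6% of the windows, held 16 of the 24 enzalutamide, 7 of the 13 OSU-ERb-12 and 5 of the 7 combination regions. The shortest width, 200 bp, was that of 7 of the 24 enzalutamide, 11 of the 13 OSU-ERb-12 and 4 of the 7 combination regions, against 45.7%, 66.1% and 68.0% of the whole lists.

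Non-coding genes lie between the HOX genes. Of 26 names listed, 24 matched a symbol, and their loci held enzalutamide regions at 17, OSU-ERb-12 regions at 12 and combination regions at 8. Of all 20216 lncRNA and miRNA genes, 33.3% held an enzalutamide, 23.8% an OSU-ERb-12 and 10.9% a combination region. The loci of the cluster genes overlap the HOX loci, so these are largely the regions already counted there. HOTAIR held 3 enzalutamide, 1 OSU-ERb-12 and 1 combination region in its locus, HOXC13-AS 2, 2 and 1, and HOTTIP, the gene beyond HOXA13, 1, 2 and 0. The microRNA genes MIR196A2 and MIR615 held 3 and 2 enzalutamide regions in their loci, MIR10B and MIR196B no region of any list, and no list had a region on a microRNA gene itself.

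Partners and regulators of HOX proteins are dispersed over the genome and were counted in the same way, beside the shares of 58.3%, 39.1% and 21.7% of all protein-coding genes. Of the 9 TALE cofactor genes, 8 held an enzalutamide, 7 an OSU-ERb-12 and 4 a combination region. PKNOX2, a long gene, held 4, 4 and 1 regions in the same order of lists, and MEIS1, a partner of HOX proteins, held 5, 1 and 1. Of 13 Polycomb genes, 11, 6 and 6 held a region, with 4, 2 and 1 at JARID2, a partner of the complex PRC2, 4, 0 and 0 at BMI1, a subunit of PRC1, and 2, 3 and 1 at CBX8. Of 8 MLL and menin genes the numbers were 6, 5 and 5, with 1, 3 and 1 at KMT2A, the gene of MLL1, and 2, 1 and 1 at DOT1L. Of the caudal genes, upstream activators of HOX genes in the embryo, CDX1 held 1 enzalutamide and 1 OSU-ERb-12 region, and CDX2 and CDX4 held none.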

How the data were processed

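The samples were 22Rv1 cells in 4 groups of 3, profiled by ATAC-seq. Per the labels' protocols, ATACSeqQC split the reads into nucleosome-free and nucleosomal parts. The build hg38 and the tools FastQC and Trimmomatic come from the submitters' processing notes. Not given in the sources used here are aligner, caller, threshold, test against vehicle and any shift for the transposase. The deposited score is 0 in every row of the 3 lists and gave no value. Lists were matched to treatments by the prefix they share with sample titles. The OSU-ERb-12 prefix is WT, also the genotype in the labels, so values for that agent rest on this match. A short tag in the list names could stand for a direction, and none was assigned.

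Positions, printed 1-based, were compared with RefSeq genes of GRCh38.p14 in Python 3.11.15 with pandas 2.3.3, NumPy 2.4.6 and SciPy 1.17.1. Chromosome extents ran to the outermost gene or region. Intervals are exact Poisson or Clopper-Pearson at 95% and cover counting error only. Genes were named by a rule: members with regions of every list, those with most regions, those with a region within 1 kb of a gene end, and those with none. The counting was tested on simulated data. The members and gene lists were chosen with earlier results of these data known. Alternatives covered other flanks, assignment to the nearest gene, wider regions alone, merging, cluster limits and overlap rules. E2 samples, named in the protocols, were not analysed here.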

Additional observations from a re-analysis of the deposited data

How the results depend on the processing

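Of 97 values under alternative settings, 73 stayed within 1.5 times the value reported, or within its counting interval for ratios of densities, and 24 moved. The number of HOX genes with a region was 12 (enzalutamide), 6 (OSU-ERb-12) and 4 (combination) with the gene body alone, and 17, 10 and 7 when each region counted for the nearest gene. With 20 kb either side it was 25 for OSU-ERb-12. With regions wider than 200 bp alone the OSU-ERb-12 number was 3 and that of the combination 6, and the cluster numbers were then 2 enzalutamide and 0 OSU-ERb-12 regions in HOXA, 0 OSU-ERb-12 and 1 combination region in HOXB, and 2 OSU-ERb-12 and 1 combination region in HOXC. Most OSU-ERb-12 regions in the clusters, 11 of 13, have the shortest width. Without flanks the OSU-ERb-12 numbers were 1 in HOXB and 3 in HOXC, with 50 kb either side HOXA had 2 combination regions, and with limits from every HOX gene, HOXB13 included, HOXB had 11 enzalutamide regions. Within 500 bp, 2 combination regions met an enzalutamide region. Within 5 kb of a gene end lay 23 enzalutamide, 11 OSU-ERb-12 and 7 combination regions. The enzalutamide density of HOXC was 2.76 times that of the 500 kb on either side, against 6.76 times that of the chromosome, a comparison added after the data were seen. Apart from the construction of each alternative, the cause was not tested. No paired analysis was possible because the lists carry no value per sample, and for the same reason no replicate could be left out. Unknown depth limits every count, since the length of a list depends on it.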

Other observations

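HOXB13, a partner of the androgen receptor in prostate cells, lies 98.4 kb beyond HOXB9 on chromosome 17. Its locus held 3 enzalutamide, 0 OSU-ERb-12 and 1 combination region. The prostate-expressed genes PRAC1 and PRAC2 lie between HOXB9 and HOXB13 and held the same numbers. Their loci overlap that of HOXB13. Other genes beside the clusters varied. SKAP2, beyond the low-numbered end of HOXA, held 4 enzalutamide regions and 2 of OSU-ERb-12, and EVX1, beyond its high-numbered end, held 1 combination region. CALCOCO1 beside HOXC held 3, 1 and 1 regions of enzalutamide, OSU-ERb-12 and the combination. Beside HOXD, EVX2 held none and MTX2 1 enzalutamide region.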
